A study of Homo sapiens with 8 samples.

Results

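The autophagy and lysosome genes described here are 35 named genes: 5 autophagy receptors, 5 members of the ATG8 family, 8 genes of autophagosome initiation and membrane supply, 6 of the conjugation machinery, 2 transcription factors, 3 lysosomal membrane proteins and 6 lysosomal enzymes. The members were given by name and not chosen by a threshold on these data, but earlier results of these data were known when they were chosen. All 35 were found among the 19431 genes of the deposited table, as the sum of 225 transcripts, and all 35 passed the filter on low values that left 11875 genes for testing. RNA was sequenced from LNCaP-FGC, a human prostate carcinoma line labelled as androgen dependent, after 24 h of treatment. The 4 groups of 2 libraries each were I-CBP112 with A-485, A-485 alone, I-CBP112 alone, and the solvent DMSO. I-CBP112 blocks the bromodomain of the coactivators p300 and CBP, and A-485 blocks their catalytic acetyltransferase site. No dose is stated in the labels, and the cells were of 1 line. Whether the 2 libraries of a group came from separate cultures is not stated, so each p-value reflects variation among these libraries only, and that variation could be technical.

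Autophagy delivers cytoplasm to the lysosome inside a double membrane. A kinase complex and a lipid kinase complex start the membrane, lipid transfer proteins enlarge it, ubiquitin-like conjugation attaches ATG8 proteins to it, and receptors that bind both ATG8 and ubiquitin bring in the cargo. Acid hydrolases of the lysosome then digest the contents, and the transcription factors TFEB and TFE3 are known to drive many of the genes for these steps through a short E-box element in their promoters.

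Values below are scaled FPKM, the deposited FPKM (reads of RNA fragments normalized for transcript length and library size) summed per gene and brought to a common scale. Fold changes are differences on the log2(scaled FPKM + 1) scale with their standard error (SE) from limma, with 2 libraries per group, and a gene was called at an adjusted p under 0.05 over all 11875 genes. The 4 replicate 1 libraries held approximate totals on the table of 16.0 to 28.4 M fragments (M, 1e+06) and the 4 replicate 2 libraries 4.44 to 13.5 M. The gap was present in every group and was of unequal size. In replicate 2 the fragments on the table were 49.4% of the normalizing total for both compounds and 33.8% for A-485. They were 21.5% for I-CBP112 and 22.6% for DMSO. In replicate 1 they were 90.7% to 99.2%. The normalizing totals themselves overlapped, at 17.2 to 31.3 M in replicate 1 and 15.8 to 27.3 M in replicate 2. The 6 luminal prostate markers reported had a summed scaled FPKM of 2402 and 1757 with both compounds, 2406 and 2040 with A-485, 3283 and 3041 with I-CBP112, and 5495 and 4366 with DMSO. With both compounds 3 of the 6 fell, namely KLK2, KLK3 and KRT18. KLK3 (prostate-specific antigen) was at 51.2 and 50.2 with both compounds, against 2279 and 1971 with DMSO. KRT8, HOXB13 and FOLH1 were not called, with differences of 0.10 ± 0.41, -0.24 ± 0.28 and -0.30 ± 0.19. The defining markers of basal cells (TP63) and of blood cells (PTPRC, CD3E) were listed at 0 in every library. The 4 basal markers summed to 0.184 and 1.90 with both compounds, 0.359 and 0 with A-485, 0.753 and 15.3 with I-CBP112, and 1.07 and 7.55 with DMSO, and the 4 blood cell markers to at most 0.320. The basal marker KRT5 was not at 0 throughout. It was at 0 and 1.65 with both compounds, 0.258 and 0 with A-485, 0.598 and 13.9 with I-CBP112, and 0.230 and 6.60 with DMSO. Its difference with both compounds was -0.91 ± 1.23 (limma adjusted p = 0.677). The sum of the 5 stromal and endothelial markers measured, of 6 listed, was 13.0 and 10.6 with both compounds, 17.7 and 15.3 with A-485, 8.26 and 7.70 with I-CBP112, and 7.18 and 5.88 with DMSO. COL1A1, a collagen chain, was at 11.6 and 9.56 with both compounds, 9.36 and 10.1 with A-485, 6.13 and 5.83 with I-CBP112, and 3.49 and 3.46 with DMSO, 1.37 ± 0.18 (log2) higher with both compounds (limma adjusted p = 0.00358). VWF, an endothelial marker and the other one of the list that was tested, was at 1.26 and 1.01 with both compounds, 7.85 and 4.76 with A-485, 2.11 and 1.66 with I-CBP112, and 3.39 and 2.42 with DMSO, a difference of -0.86 ± 0.26 with both compounds (adjusted p = 0.0730). COL1A2, the chain that partners COL1A1 in type I collagen, did not pass 0.008. The part of these marker differences in the results below was not tested. In bulk RNA, fewer cells of a kind and less RNA per cell cannot be told apart.

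With both compounds against DMSO, 3 members rose and none fell: the receptor OPTN, the lipid transfer gene ATG2A and the sialidase NEU1. These are 8.57% of the 35 members, beside 10.2% of all genes tested that were called in either direction, 3.16% higher and 7.06% lower, and 7 of the 35 members had an unadjusted p under 0.05, beside 3246 of the 11875 genes. The median difference of the members was 0.20 (log2) with 24 of 35 above 0, beside a median of 0.03 over all genes. With libraries scaled to a total only, 33 members lay above 0 and the median of all genes was 0.25, while 737 genes were called higher and 489 lower, where TMM scaling (trimmed mean of M values) gave 375 and 838. With A-485 that scaling gave 378 higher and 161 lower, where TMM gave 175 and 360. With A-485 alone OPTN rose and no other member was called, beside 4.51% of all genes called in either direction and 1.47% higher. The member median with A-485 was 0.02, as was that of all genes. With I-CBP112 alone limma called 0 members, beside 0.00% of all genes, while 1 member and 1306 genes had an unadjusted p under 0.05. The member median with I-CBP112 was 0.03, beside -0.003 over all genes. All of these comparisons use the same 2 DMSO libraries. With the replicate number as a block, 7 members were called with both compounds (beside 19.1% of all genes in either direction and 7.30% higher), 2 with A-485 (beside 12.8% and 4.74% higher) and 3 with both compounds against I-CBP112 (beside 5.50% and 1.38% higher). With protein-coding transcripts only, 4 members were called with both compounds, beside 3.12% of all genes higher.

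**Figure D1:**
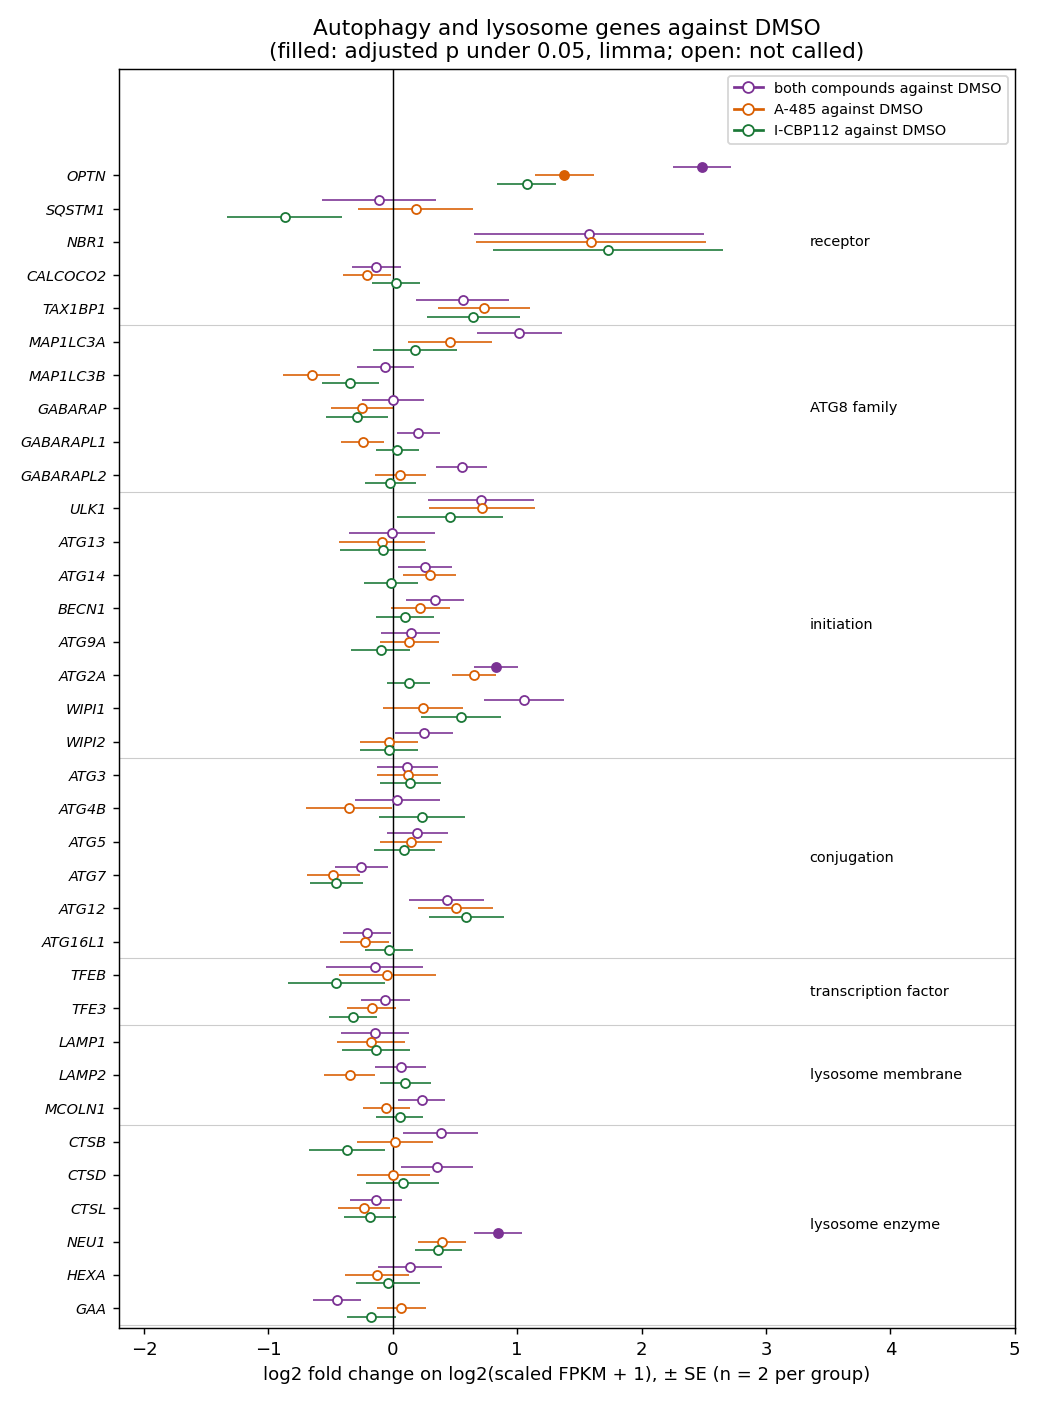
Log2 fold change against DMSO of each member, ± SE, on the log2(scaled FPKM + 1) scale, with both compounds, A-485 and I-CBP112 from top to bottom within each gene (2 libraries per group). Filled points were called by limma: OPTN, ATG2A and NEU1 with both compounds and OPTN with A-485.

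The sequences shown here are those before the transcription start of the 3 members that rose with both compounds, because they let the E-box be read directly. They run from 250 bases before to 50 after the annotated start, 5′ to 3′ on the gene's strand, from RefSeq on GRCh38.p14. Capitals mark CACGTG, the E-box core, which reads the same on both strands. The OPTN window lies at chr10:13099832-13100131 on the plus strand, and RefSeq lists another OPTN start whose window overlaps it and likewise lacks CACGTG. The NEU1 window lies at chr6:31862772-31863071 on the minus strand and holds the E-box at -126 from the start. The ATG2A window lies at chr11:64917160-64917459 on the minus strand.
OPTN: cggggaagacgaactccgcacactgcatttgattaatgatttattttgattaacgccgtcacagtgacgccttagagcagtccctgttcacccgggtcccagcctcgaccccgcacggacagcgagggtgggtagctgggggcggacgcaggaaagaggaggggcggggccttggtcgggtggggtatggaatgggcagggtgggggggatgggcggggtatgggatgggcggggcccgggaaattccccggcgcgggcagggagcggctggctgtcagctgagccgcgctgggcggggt
NEU1: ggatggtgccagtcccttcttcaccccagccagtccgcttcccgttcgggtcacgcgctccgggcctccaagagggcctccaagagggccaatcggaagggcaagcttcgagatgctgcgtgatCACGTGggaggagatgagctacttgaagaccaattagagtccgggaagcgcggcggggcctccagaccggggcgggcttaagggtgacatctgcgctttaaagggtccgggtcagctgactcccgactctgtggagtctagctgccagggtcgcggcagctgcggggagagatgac
ATG2A: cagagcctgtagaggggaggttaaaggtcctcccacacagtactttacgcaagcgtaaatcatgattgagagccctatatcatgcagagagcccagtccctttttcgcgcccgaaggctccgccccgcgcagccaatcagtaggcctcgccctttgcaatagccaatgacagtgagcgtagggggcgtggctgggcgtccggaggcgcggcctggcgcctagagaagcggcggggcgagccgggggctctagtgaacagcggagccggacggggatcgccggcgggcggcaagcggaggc

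Promoter entries matched 31 of the 35 members by symbol, and MAP1LC3A, LAMP2, CTSB and HEXA had none. CACGTG occurred in the windows of 7 of the 31, or 22.6%, namely ATG3, ATG14, LAMP1, MCOLN1, CTSD, NEU1 and GAA. It occurred in 8.77% of the 27305 gene symbols with promoter entries and in 7.26% of their 35116 windows. Those symbols were not limited to the 11875 genes tested, whereas all members passed that filter, so the shares have unlike bases. The longer TCACGTG, searched on both strands and containing CACGTG, was present in the same 7 members and in 4.49% of symbols. With both compounds against DMSO, 5 of the 7 members with CACGTG lay above 0 and 1 was called, with differences of -0.45 to 0.84 and a median of 0.23. Of the 24 members without it, 15 lay above 0 and 2 were called, with differences of -0.25 to 2.49 and a median of 0.17. The windows show letters only and no binding.

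The calls per role with both compounds are read beside the same 3.16% of all genes higher and 7.06% lower. Role counts at an unadjusted p under 0.05 are read beside the all-gene number given above. Among the receptors, 1 of 5 was called with both compounds. OPTN encodes optineurin, a receptor that links ubiquitinated mitochondria and bacteria to ATG8 proteins. Its scaled FPKM was 24.3 and 19.7 with both compounds, 9.31 and 9.93 with A-485, 9.45 and 6.10 with I-CBP112, and 2.67 and 3.54 with DMSO. Every treated library lay above both DMSO libraries, and both libraries of the combination lay above all others. The OPTN value of DMSO replicate 2 rested on 35 approximate fragments. OPTN was 2.49 ± 0.24 (log2, SE) higher with both compounds than with DMSO (limma adjusted p = 0.00101), and 1.38 ± 0.24 higher with A-485 (adjusted p = 0.0217). With I-CBP112 the difference of 1.08 ± 0.24 missed the threshold after adjustment (limma adjusted p = 0.266). Leaving out each library in turn kept the call with both compounds, with differences of 2.33 to 2.65 and adjusted p up to 0.0126. The call with A-485 was lost without A-485 replicate 1 (1.42, adjusted p = 0.0919), A-485 replicate 2 (1.33, adjusted p = 0.149) or DMSO replicate 1 (1.21, adjusted p = 0.0933).

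Adding A-485 to I-CBP112 raised OPTN by 1.41 ± 0.24 (limma adjusted p = 0.0252), the only member called in that comparison, beside 2.20% of all genes in either direction and 0.278% higher. That call was lost without combination replicate 1 (1.26, adjusted p = 0.204), combination replicate 2 (1.55, adjusted p = 0.122) or I-CBP112 replicate 2 (1.13, adjusted p = 0.172). Adding I-CBP112 to A-485 gave 1.11 ± 0.24 (adjusted p = 0.0999), and limma called 0 members in that comparison, beside 0.825% of all genes, with 7 members and 1431 genes at an unadjusted p under 0.05. The departure of the OPTN combination from the sum of the single differences was 0.03 ± 0.33 (limma adjusted p = 0.985). With protein-coding transcripts only, the I-CBP112 difference of OPTN was 0.71 ± 0.21 (limma adjusted p = 0.335) and the departure 0.29 ± 0.29 (adjusted p = 0.796). Over all 35 members that departure was called for 0 by limma, beside 0.00% of all genes, with 1 member and 1054 genes at an unadjusted p under 0.05.

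**Figure D2:**
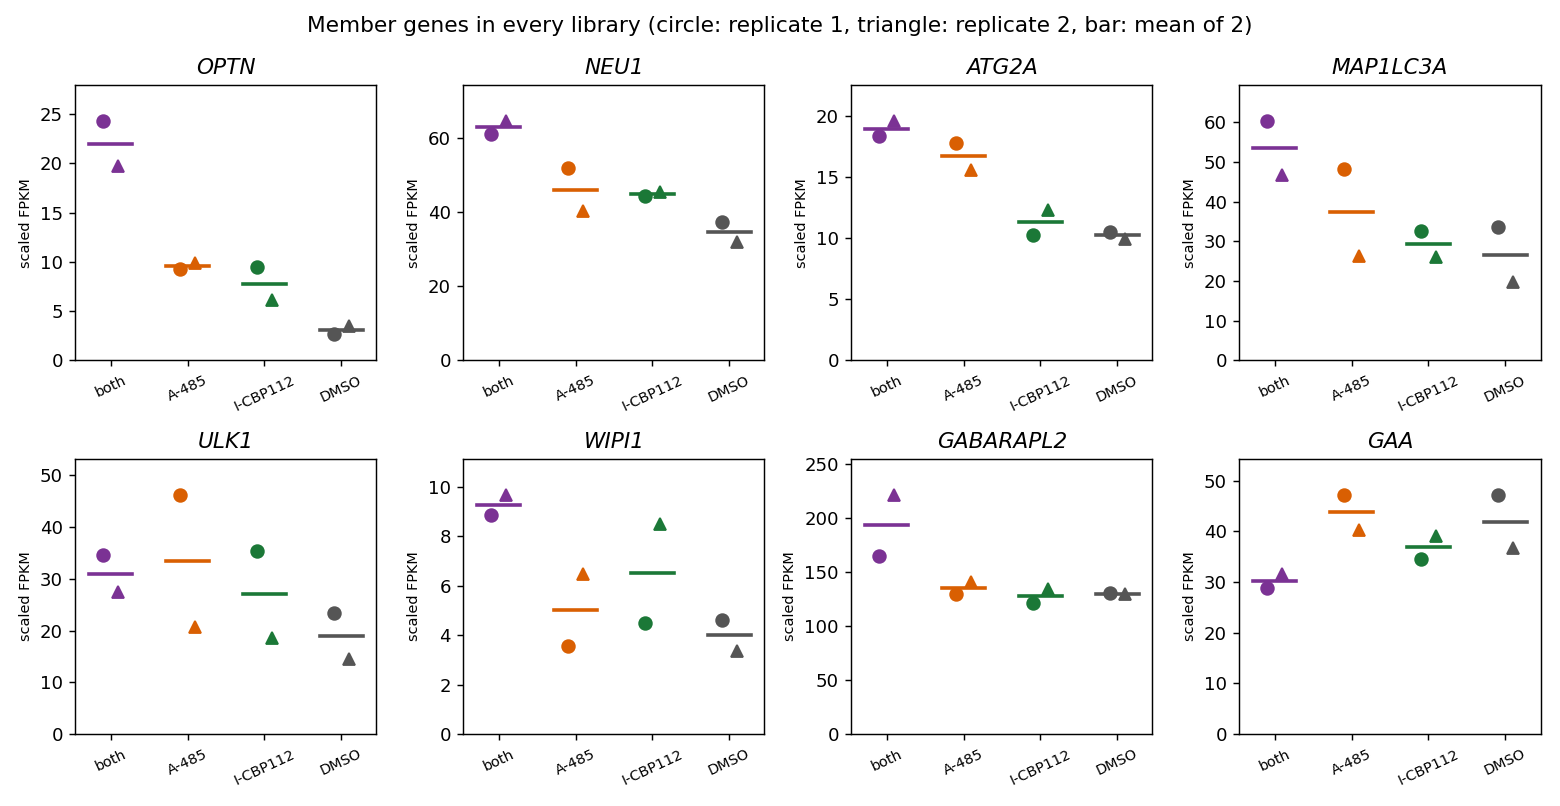
Scaled FPKM of 8 members in each of the 8 libraries, with circles for replicate 1, triangles for replicate 2 and a bar for the mean of 2. OPTN lay at 19.7 and 24.3 with both compounds and at 2.67 and 3.54 with DMSO, while GAA was lowest with both compounds.

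The OPTN total rested on 8 transcripts whose estimated shares varied between libraries of the same group. The coding transcript OPTN-201 held 40.4% and 5.37% of the total with both compounds, 33.1% and 49.4% with A-485, 22.8% and 46.4% with I-CBP112, and 12.6% and 66.3% with DMSO. OPTN-208, annotated for nonsense-mediated decay, held 49.0% of the total in I-CBP112 replicate 1 and 17.2% in combination replicate 1. The summed coding transcripts of OPTN were at 20.1 and 19.7 with both compounds, 9.004 and 9.93 with A-485, 4.82 and 6.10 with I-CBP112, and 2.40 and 3.54 with DMSO. The order of the groups by their mean was the same in this coding sum as in the total.

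**Figure D3:**
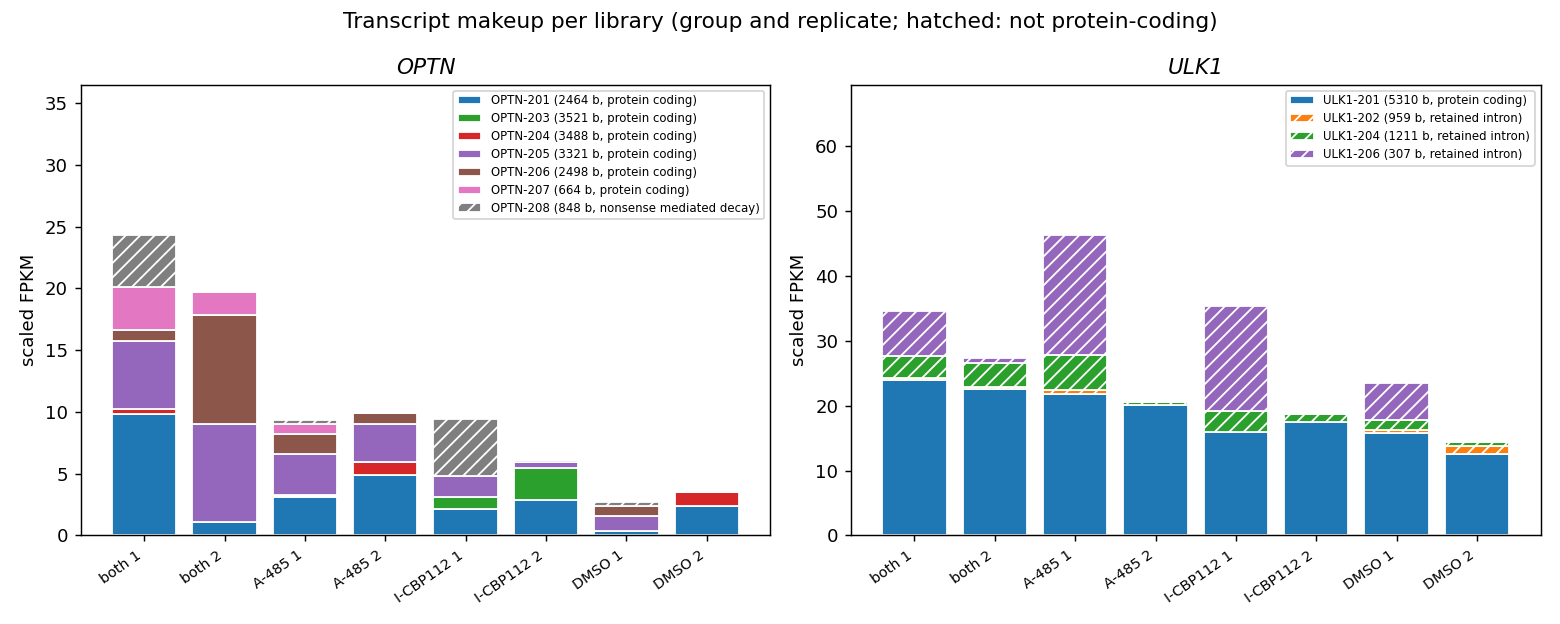
Scaled FPKM of the transcripts of OPTN and ULK1, stacked per library, with hatched parts for transcripts that are not protein-coding. The makeup of OPTN differed within groups, while the order of the groups by mean was the same for its total and its coding sum. In replicate 1 the OPTN total was higher with I-CBP112 (9.45) than with A-485 (9.31). The 307-base retained-intron transcript of ULK1 was high in replicate 1 libraries only.

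The other receptors were not called with any treatment. SQSTM1 (p62), the receptor that also gathers ubiquitinated protein into bodies, was at 9.47 and 4.40 with both compounds, 7.72 and 8.77 with A-485, 3.20 and 3.71 with I-CBP112, and 3.92 and 12.4 with DMSO. DMSO replicate 2 was the highest of all libraries, and both I-CBP112 libraries lay below both DMSO libraries. The difference was -0.11 ± 0.46 with both compounds (limma adjusted p = 0.902) and -0.87 ± 0.46 with I-CBP112 (adjusted p = 0.530). The value of I-CBP112 replicate 2 rested on 27 approximate fragments. NBR1, a receptor for ubiquitinated cargo and peroxisomes, was at 25.8 and 14.4 with both compounds, 19.6 and 19.6 with A-485, 20.9 and 22.3 with I-CBP112, and 19.7 and 1.25 with DMSO. Only DMSO replicate 2 was low, at 21 approximate fragments, so the 1.58 ± 0.92 with both compounds (adjusted p = 0.324) rested on that library. Without DMSO replicate 1 it became 3.19 (adjusted p = 0.00585) with both compounds and 3.19 (adjusted p = 0.0278) with A-485. TAX1BP1, a receptor for protein aggregates, was at 40.0 and 42.7 with both compounds, 41.7 and 52.1 with A-485, 43.3 and 44.6 with I-CBP112, and 17.1 and 44.5 with DMSO. Here DMSO replicate 1 alone was low, and without DMSO replicate 2 the difference was 1.23 (adjusted p = 0.0180) with both compounds and 1.40 (adjusted p = 0.0164) with A-485. CALCOCO2, the receptor NDP52, lay between 55.3 and 77.8 in all libraries.

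The ATG8 family, the ubiquitin-like proteins that coat the membrane and bind receptors, had 0 of 5 members called by limma with both compounds, and 2 had an unadjusted p under 0.05. MAP1LC3A had the largest difference of the family. It was at 60.3 and 46.7 with both compounds, 48.2 and 26.4 with A-485, 32.7 and 26.1 with I-CBP112, and 33.5 and 19.7 with DMSO. Both libraries of the combination lay above both DMSO libraries, and in every group replicate 1 was above replicate 2. The difference with both compounds was 1.02 ± 0.34 (limma adjusted p = 0.0965), and 0.00959 with the replicate number as a block. Against I-CBP112, both compounds gave 0.84 ± 0.34 (adjusted p = 0.280, and 0.0394 with the block). GABARAPL2 (GATE-16), a member that acts late in autophagosome maturation, was at 165 and 222 with both compounds, 130 and 141 with A-485, 122 and 134 with I-CBP112, and 130 and 129 with DMSO. Both libraries of the combination were above the other 6, at 0.55 ± 0.21 over DMSO (limma adjusted p = 0.125, and 0.0405 with the block).

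GABARAP was the most abundant member per length in every library, at 907 to 1454, and DMSO held both the highest value and one of the lower ones. MAP1LC3B, the usual protein marker of autophagosomes, was at 33.8 and 41.3 with both compounds, 24.3 and 24.6 with A-485, 28.9 and 32.3 with I-CBP112, and 48.1 and 31.6 with DMSO. Both A-485 libraries lay below both DMSO libraries, at -0.65 ± 0.23 (limma adjusted p = 0.126). Without DMSO replicate 2 that difference was -0.95 (adjusted p = 0.0348). GABARAPL1 ranged from 32.5 to 49.2 over all libraries, with its highest values in the combination.

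Among the 8 genes of initiation and membrane supply, ATG2A rose with both compounds, and under TMM scaling 7 of 8 differences were above 0. ATG2A encodes a protein that carries lipid from the endoplasmic reticulum to the growing membrane. It was at 18.3 and 19.6 with both compounds, 17.7 and 15.6 with A-485, 10.3 and 12.3 with I-CBP112, and 10.5 and 9.92 with DMSO. The 4 libraries that received A-485 lay above the 4 that did not. The estimated shares of the ATG2A transcripts varied within groups. The coding transcript ATG2A-201 held 65.1% and 15.2% of the total with both compounds and 69.1% and 51.6% with A-485. Its share was 76.5% and 36.3% with I-CBP112, and 48.0% and 2.22% with DMSO. The difference was 0.83 ± 0.17 with both compounds (limma adjusted p = 0.0240), 0.65 ± 0.17 with A-485 (adjusted p = 0.0719, and 0.0413 with the replicate block) and 0.13 ± 0.17 with I-CBP112 (adjusted p = 0.826). The call with both compounds was lost without DMSO replicate 1 (0.86, adjusted p = 0.0559), DMSO replicate 2 (0.79, adjusted p = 0.0525), combination replicate 1 (0.87, adjusted p = 0.126) or combination replicate 2 (0.80, adjusted p = 0.143).

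ULK1, the kinase that starts autophagy, was at 34.6 and 27.4 with both compounds, 46.3 and 20.7 with A-485, 35.3 and 18.6 with I-CBP112, and 23.4 and 14.5 with DMSO. Replicate 1 was above replicate 2 in every group, and the difference with both compounds was 0.71 ± 0.43 (limma adjusted p = 0.322, and 0.0471 with the block). Much of that split was a retained-intron transcript of 307 bases, at 6.93 and 0.91 with both compounds, 18.5 and 0.12 with A-485, 16.1 and 0.00 with I-CBP112, and 5.61 and 0.06 with DMSO. The coding transcript of ULK1 was at 24.0 and 22.6 with both compounds, 21.8 and 20.0 with A-485, 16.0 and 17.5 with I-CBP112, and 15.8 and 12.6 with DMSO. Its groups did not overlap between both compounds and DMSO, and with coding transcripts only the difference was 0.68 ± 0.18 (limma adjusted p = 0.0474). WIPI1, which binds the lipid of the early membrane, was at 8.88 and 9.68 with both compounds, 3.57 and 6.49 with A-485, 4.50 and 8.50 with I-CBP112, and 4.61 and 3.37 with DMSO. Both libraries of the combination were above the other 6, at 1.05 ± 0.32 over DMSO (limma adjusted p = 0.0769, and 0.0463 with the block). The WIPI1 value of DMSO replicate 2 rested on 21 approximate fragments. The remaining 5 genes of this role, ATG9A, ATG13, ATG14, BECN1 and WIPI2, differed from DMSO by -0.01 to 0.34 with both compounds.

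The conjugation machinery, which lipidates ATG8 proteins, had 0 of 6 members called by limma with both compounds and 0 at an unadjusted p under 0.05. Its largest difference was that of ATG12, the ubiquitin-like protein joined to ATG5. ATG12 was at 5.48 and 9.44 with both compounds, 6.08 and 9.61 with A-485, 6.77 and 9.82 with I-CBP112, and 4.82 and 5.39 with DMSO. All 6 treated libraries lay above both DMSO libraries, and within each treatment replicate 2 was the higher. The difference was 0.43 ± 0.30 with both compounds (limma adjusted p = 0.393). ATG3, ATG4B, ATG5, ATG7 and ATG16L1 differed from DMSO by -0.25 to 0.20 with both compounds, with ATG7, the E1-like enzyme, lowest.

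Neither transcription factor was called with both compounds. TFEB was at 11.6 and 5.50 with both compounds, 10.2 and 7.39 with A-485, 4.31 and 9.06 with I-CBP112, and 10.5 and 7.72 with DMSO. Its libraries overlapped in all groups, and the difference with both compounds was -0.15 ± 0.39 (limma adjusted p = 0.839). TFE3 lay between 25.3 and 37.0 in all libraries, with a difference of -0.06 ± 0.19 with both compounds (adjusted p = 0.868). These are RNA levels, and the movement of TFEB and TFE3 into the nucleus, by which their activity is known to be set, was not measured.

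The 3 lysosomal membrane genes had 0 calls by limma with both compounds and 0 at an unadjusted p under 0.05. MCOLN1, the calcium channel of the lysosome, was at 17.8 and 16.2 with both compounds, 14.8 and 12.8 with A-485, 13.0 and 17.1 with I-CBP112, and 14.6 and 14.0 with DMSO. Both combination libraries lay above both DMSO libraries, at 0.23 ± 0.19 (limma adjusted p = 0.462). LAMP1 and LAMP2, the abundant glycoproteins of the lysosomal membrane, ranged from 49.1 to 85.1 over all libraries, with differences of -0.15 and 0.06 with both compounds.

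Among the 6 lysosomal enzymes, NEU1 rose with both compounds. NEU1 encodes the sialidase that removes sialic acid from glycoproteins and glycolipids, and it had 1 transcript in the table. It was at 61.1 and 64.7 with both compounds, 51.9 and 40.3 with A-485, 44.3 and 45.5 with I-CBP112, and 37.4 and 32.0 with DMSO. All 6 treated libraries lay above both DMSO libraries, and the combination lay above both single treatments. The difference was 0.84 ± 0.19 with both compounds (limma adjusted p = 0.0306), 0.39 ± 0.19 with A-485 (adjusted p = 0.240) and 0.37 ± 0.19 with I-CBP112 (adjusted p = 0.522). The call was lost without either DMSO library (replicate 1: 0.95, adjusted p = 0.0558, and replicate 2: 0.73, adjusted p = 0.0742). It was lost without either I-CBP112 library (0.84, adjusted p = 0.0547, and 0.86, adjusted p = 0.0510) and without either combination library (0.88, adjusted p = 0.147, and 0.82, adjusted p = 0.155).

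The cathepsins were not called with any treatment. CTSD, the aspartic protease and the most abundant of the enzymes, was at 391 and 292 with both compounds, 318 and 221 with A-485, 303 and 257 with I-CBP112, and 329 and 212 with DMSO. Replicate 1 was above replicate 2 in each group, and the libraries of each treatment overlapped with those of DMSO. CTSB, a cysteine protease, was at 176 and 123 with both compounds, 135 and 95.9 with A-485, 106 and 71.1 with I-CBP112, and 132 and 95.9 with DMSO. Both combination libraries lay above both I-CBP112 libraries, at 0.75 ± 0.30 (limma adjusted p = 0.276, and 0.0189 with the block). CTSL and HEXA ranged from 42.6 to 83.8. GAA, the enzyme that breaks down lysosomal glycogen, was at 28.8 and 31.6 with both compounds, 47.2 and 40.3 with A-485, 34.6 and 39.1 with I-CBP112, and 47.1 and 36.7 with DMSO. Both combination libraries were the lowest of the 8, at -0.45 ± 0.20 against DMSO (limma adjusted p = 0.181), the lowest difference of any member in that comparison.

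Between both compounds and DMSO the 2 libraries of each group did not overlap for 11 members that were higher, or 31.4%, and 3 that were lower, or 8.57%. Over all genes tested the shares were 28.2% higher and 26.8% lower. Against A-485, 13 members were higher and 1 lower without overlap with both compounds, beside 22.0% and 26.5% of all genes. Against I-CBP112, 17 were higher and 2 lower, beside 25.6% and 24.8%. With A-485 against DMSO 4 members were higher and 7 lower without overlap, beside 27.7% and 24.8%, and with I-CBP112 4 were higher and 4 lower, beside 18.1% and 19.1%. Taking the replicate numbers apart, 17 members were higher with both compounds than with DMSO in both numbers, 4 were lower in both, and 14 took opposite directions. As shares of all genes tested, 36.4% were higher in both numbers, 34.0% lower in both and 29.5% opposite. OPTN was higher by 2.79 and 2.19 in replicates 1 and 2, NEU1 by 0.69 and 0.99, and ATG2A by 0.74 and 0.91.

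**Figure D4:**
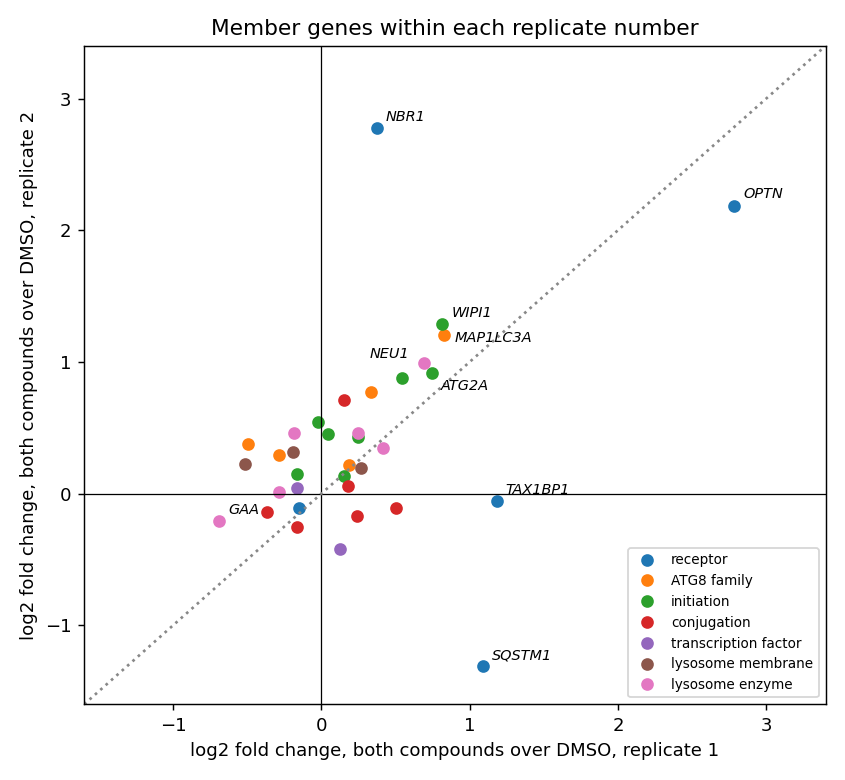
Log2 difference between both compounds and DMSO within replicate number 1 (horizontal axis) and 2 (vertical axis) for the 35 members, coloured by role, with equality as a dotted line. OPTN, at 2.79 and 2.19, lay far from 0 in both, while NBR1, TAX1BP1 and SQSTM1 lay far from 0 in 1 number only or in opposite directions.

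Calls among other genes of the pathway with both compounds are read beside the same 3.16% higher, 7.06% lower and 3246 genes at an unadjusted p under 0.05 of the 11875 tested. Of 17 other receptors and adaptors tested, 1 rose: PINK1, the kinase that marks damaged mitochondria and acts upstream of optineurin. PINK1 was at 66.5 and 56.0 with both compounds, 42.5 and 42.8 with A-485, 32.1 and 29.9 with I-CBP112, and 35.3 and 23.9 with DMSO. Both combination libraries lay above the other 6, at 1.04 ± 0.22 over DMSO (limma adjusted p = 0.0224). The call was lost without DMSO replicate 2 (0.77, adjusted p = 0.0521), combination replicate 1 (0.92, adjusted p = 0.154) or combination replicate 2 (1.19, adjusted p = 0.0707). Of 28 other core autophagy genes, 0 were called by limma and 6 had an unadjusted p under 0.05, with 22 above 0 and a median of 0.30. Of 19 subunits and partners of the V-ATPase, the proton pump of the lysosome, 0 were called and 5 had an unadjusted p under 0.05, with 17 above 0 and a median of 0.37. These medians are read beside the all-gene median given above. The share of all genes above 0 is not reported here. Counts above 0 depend on the scaling, as for the members, with 24 above 0 under TMM and 33 under a total only. With the replicate block the calls were 4 receptors, 4 core genes and 3 V-ATPase genes, all higher, beside 7.30% of all genes higher and 11.8% lower under the block.

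Of 48 other lysosomal genes tested, 2 rose and 0 fell, 15 had an unadjusted p under 0.05, and the median was 0.19. FUCA1, the lysosomal fucosidase, was at 26.2 and 27.1 with both compounds, 18.7 and 20.2 with A-485, 16.9 and 23.0 with I-CBP112, and 14.5 and 11.9 with DMSO. NPC2, which hands cholesterol to NPC1, was at 195 and 209 with both compounds, 130 and 114 with A-485, 154 and 188 with I-CBP112, and 111.9 and 104 with DMSO. In both genes all treated libraries lay above both DMSO libraries, by 0.97 ± 0.20 for FUCA1 (limma adjusted p = 0.0220) and 0.89 ± 0.19 for NPC2 (adjusted p = 0.0263) with both compounds. The FUCA1 call was lost without DMSO replicate 2 (0.84, adjusted p = 0.0606) or combination replicate 1 or 2 (0.99 and 0.96, adjusted p = 0.120 and 0.118). The NPC2 call was lost without DMSO replicate 1 or 2 (0.94 and 0.84, adjusted p = 0.0561 and 0.0544) or combination replicate 1 or 2 (0.94 and 0.86, adjusted p = 0.135 and 0.144). With the replicate block 9 of these genes were called higher and 3 lower, beside the same 7.30% and 11.8%.

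Of 32 genes that control mTORC1 and AMPK, the kinases that restrain and start autophagy, 1 rose and 1 fell. Over all genes tested 3.16% were called higher and 7.06% lower. SESN1, a sestrin that restrains mTORC1 when leucine is scarce, was at 11.0 and 15.7 with both compounds, 41.6 and 48.6 with A-485, 26.6 and 28.9 with I-CBP112, and 28.7 and 33.8 with DMSO. The combination was lowest and A-485 alone highest, with -1.19 ± 0.21 for both compounds against DMSO (limma adjusted p = 0.0131) and 0.52 ± 0.21 for A-485 (adjusted p = 0.176). The call with both compounds was lost without combination replicate 1 (-0.95, adjusted p = 0.108). RRAGB, a GTPase that brings mTORC1 to the lysosome, was at 20.7 and 19.8 with both compounds and 11.5 and 12.7 with DMSO, a difference of 0.70 ± 0.18 (limma adjusted p = 0.0427) whose call was lost whichever library was left out, with adjusted p of 0.0575 to 0.217.

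Of 16 genes of transcriptional control of autophagy, 1 rose and 3 fell with both compounds, beside 3.16% higher and 7.06% lower over all genes. PPARA, a fasting-activated nuclear receptor, was at 4.42 and 5.47 with both compounds and 2.06 and 2.33 with DMSO, 0.89 ± 0.19 higher (limma adjusted p = 0.0258). That call was lost without DMSO replicate 1 (0.83, adjusted p = 0.0706) or combination replicate 1 or 2 (1.01 and 0.78, adjusted p = 0.106 and 0.178). With A-485 PPARA was at 4.75 and 4.57, a difference of 0.83 ± 0.19 (limma adjusted p = 0.0512, and 0.0312 with the block). DDIT3 (CHOP), a stress factor, was at 29.4 and 41.4 with both compounds, 23.8 and 37.8 with A-485, 81.4 and 82.7 with I-CBP112, and 115 and 129 with DMSO. It fell by 1.77 ± 0.26 with both compounds (limma adjusted p = 0.00566) and by 1.98 ± 0.26 with A-485 (adjusted p = 0.00962). The first call was lost without combination replicate 1 (-1.53, adjusted p = 0.0514) and the second without A-485 replicate 1 (-1.66, adjusted p = 0.0549). E2F1, a cell cycle factor, was at 15.3 and 11.9 with both compounds and 74.0 and 33.2 with DMSO, and it fell by 1.81 ± 0.40 (limma adjusted p = 0.0281). The E2F1 call was lost without DMSO replicate 1 (-1.25, adjusted p = 0.0959) or combination replicate 1 or 2 (-1.98 and -1.62, adjusted p = 0.0990 and 0.149). With A-485 E2F1 was at 35.7 and 23.2, a difference of -0.77 ± 0.40 (limma adjusted p = 0.268, and 0.0464 with the block). The third gene called lower was ATF4, the activator of the amino acid stress response, whose values and left-out fits are not reported here.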

How the data were processed

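One table of transcripts was analysed, with 81591 rows and a column for each of the 8 libraries. It is called a count table, yet 78.3% of the entries were fractional and the smallest entries of long transcripts came in steps inversely related to length, so the values deposited by the authors were taken as FPKM. Per the submitters' processing notes, STAR, Cufflinks, DESeq, DESeq2, hg19 and GRCh37 were used, with no version or role stated. In each library 71.1% to 75.1% of low values were whole multiples of the step (tolerance 0.1 fragments, transcripts of at least 3000 bases), and approximate fragments were derived from it.

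Transcripts were named by GENCODE release 29 (74209 matched, 91.0%), and those not matched were left out, which would lower the total of any gene they belong to. The deposited FPKM were summed per gene, scaled to 1e+06 and by TMM (trimmed mean of M values) factors. Genes at a scaled FPKM of 1 or more in 2 or more libraries (11875) entered limma 3.58.1 (R 4.3.3) as log2 values with a pseudocount of 1. The fit had 4 group means, 4 residual degrees of freedom, a trended robust variance, and p-values adjusted by Benjamini-Hochberg. The pseudocount understates changes of low genes. The fit was checked on simulated data with independent noise of the same spread in all libraries. That check did not cover the unequal fragment totals or the correlated deviations of same-numbered libraries given below. Alternatives were a pseudocount of 0.1, no filter, scaling to a total only, values as deposited, protein-coding transcripts only, a replicate block, leaving out each library, and, added after seeing the data, approximate fragments.

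Replicate numbers share a prefix in the column names that no source used here explains. Deviations of same-numbered libraries correlated at 0.145 to 0.425 over genes in all 6 group pairs, so blocked values are given where they change a call. The members and lists were chosen with earlier results of these data known. Every member is accounted for. Values per library are given for members called in any comparison and for the largest difference of each other role, and in the wider lists for at most 2 calls in each direction. Other members given with values per library were chosen after their values were seen. Some listed cell type markers are not reported here.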

Additional observations from a re-analysis of the deposited data

How the results depend on the processing

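With both compounds against DMSO, 3 members were called, against 5 when libraries were scaled to a total only, 0 with values as deposited, 7 with the replicate block, 5 with approximate fragments, and 1 to 3 when 1 library was left out. With A-485 the count of 1 became 2, 0, 2 and 2 under the same settings, and 0 to 3 with a library left out. For both compounds against I-CBP112 the count of 1 became 0 without the filter, 0 with a total only, 0 as deposited and 3 with the block, and 0 to 1 with a library left out. The replicate block changed no member's call beyond those given with the gene. The other comparisons called 0 members under every setting, and no named difference reversed among those called. Over all genes, both compounds against DMSO called 1213 genes, against 0 as deposited, 2273 with the block, 2064 with fragments and 280 to 1276 with a library left out. A-485 called 535, against 339 without the filter, 0 as deposited, 1525 with the block, 1374 with fragments and 19 to 1344. Scaling to a total only moved the median gene to 0.25 with both compounds, 0.31 with A-485 and 0.13 with I-CBP112, and values as deposited to 0.61, 0.37 and 0.05. With a total only 737 genes were higher and 489 lower with both compounds, where TMM scaling gave 375 and 838, and 33 members lay above 0, where TMM gave 24. The cause of these differences was not tested. Fewer fragments on the table limit the replicate 2 libraries, and 3 of 280 member values rested on fewer than 30 approximate fragments.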
